A study of Mus musculus with 12 samples.

Results

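The genes described here are 42 genes of the cell division cycle, chosen by name: the proliferation markers Mki67 and Top2a, G1 cyclins and their transcription factors, the replication licensing helicase with its sliding clamp, enzymes of deoxynucleotide synthesis, mitotic cyclins and kinases, and proteins of the centromere and spindle. Their RNA was measured in mouse lung on Affymetrix whole-genome mouse arrays, which carry several probe sets (groups of short probes) for many genes. Of the 42 genes, 41 had a probe set annotated with their symbol alone, among 18193 such genes on the array, and each gene was read from the probe set with the highest mean. Ccnb1 was not analysed here. 31 of the 41 passed a filter on dim probe sets, a mean log2 signal of 3.06 or more over all arrays, and were tested among the 12309 genes that passed it.

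The 12 arrays each held the total RNA of 1 lung sample, 3 in each of 4 groups. All animals were male C57BL/6 mice of 8 to 12 weeks, either wild type (WT) or nmMLCK-/- (called the knockout, KO), the latter without the long product of Mylk, the gene of myosin light chain kinase, that non-muscle cells make. In each genotype 1 group breathed spontaneously (SB) and the other was ventilated for 4 h at a high tidal volume, a model of ventilator-induced lung injury (VILI). The sources disagree on the tidal volume: the labels of the samples give 40 ml/kg, and the text on the series gives 30 ml/kg. The rate was 65 breaths per min, with an end-expiratory pressure of 0 cm H2O. The sources used here do not say in which cells or from what age the isoform was absent, nor which part of the lung was taken. How the SB animals were handled (anaesthesia, intubation) is not given either, so ventilation and handling cannot be told apart.

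A cell that enters the division cycle first makes D and E cyclins, which with their kinases inactivate the pocket proteins of the Rb family and free E2F factors to switch on replication genes. The Mcm proteins are loaded on DNA in G1 as the inactive replicative helicase, and a later set of genes, from Cdk1 and the B cyclins to Plk1, is switched on in G2 for mitosis. In the adult lung few cells divide at rest, and division of alveolar and endothelial cells is a known part of repair after injury.

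At 4 h of ventilation the markers and the 14 tested mitotic genes of this set were not called different from spontaneous breathing in either genotype. The genes called were those of 2 helicase subunits, both lower: Mcm7 in each genotype, and Mcm2 only in the mean of both. Most of these 14 mitotic genes were dim, with a mean log2 signal between the filter level and 5. At that level 6.14% of all genes were called in wild type and 7.20% in the knockout, against 17.4% and 22.2% between 5 and 8. Whether a change is harder to detect in dim genes was not tested. For VILI minus SB in wild type, 1 of the 31 tested genes was called at an adjusted p under 0.05, against 15.4% of all genes tested. 0 of the 31 were called higher, against 6.34% of all genes, and 1 was called lower, against 9.03%. The knockout gave the same counts for the 31 genes, 0 higher and 1 lower, where 20.7% of all genes were called, 8.12% higher and 12.6% lower. For the mean of both genotypes 2 of the 31 genes (6.45%) were called, again 0 higher and 2 lower, against 36.7% of all genes, 14.1% higher and 22.6% lower. At an unadjusted p under 0.05 with limma, 3 of the 31 stood in each genotype and 2 in the mean of both. Of all 12309 genes, 3825 stood there in wild type, 4538 in the knockout and 5783 in the mean of both. The median log2 difference of the 31 genes was 0.05 in wild type, -0.04 in the knockout and -0.02 in the mean of both, beside -0.05 for all genes in each of these.

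**Figure D1:**
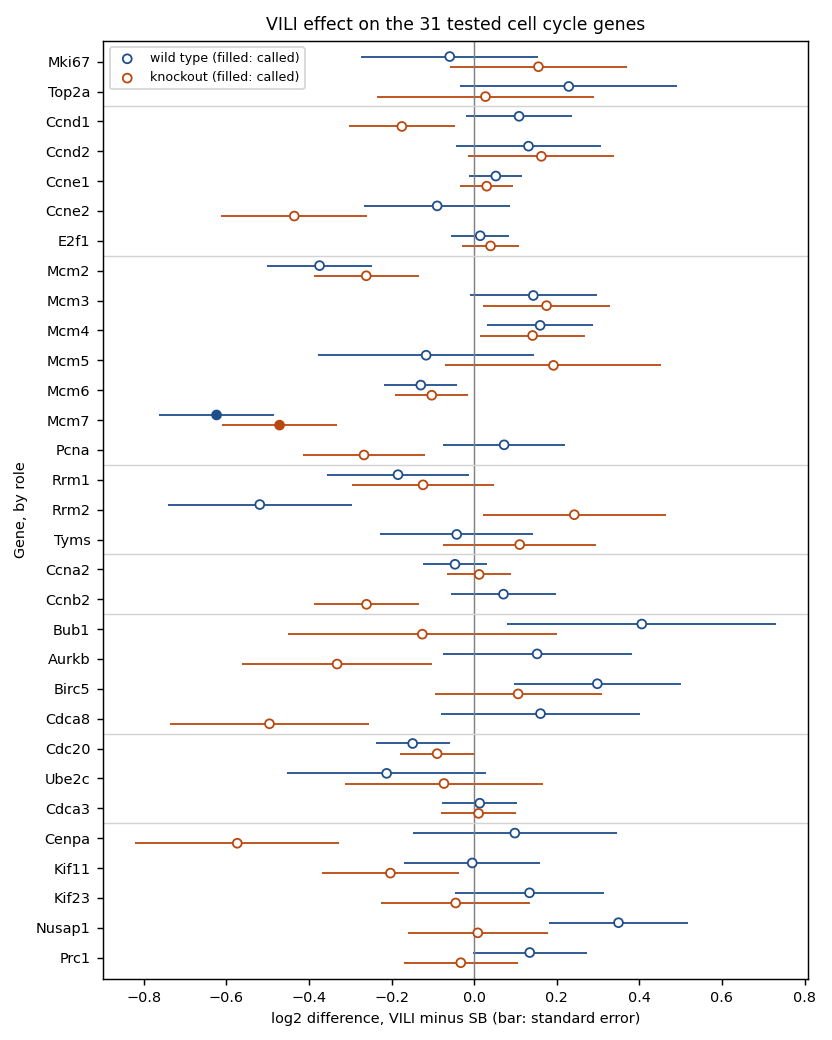
Log2 difference, VILI minus SB, with its standard error for each of the 31 tested cell cycle genes in wild type (blue) and knockout (orange), ordered by role. Mcm7 is the gene whose points are filled, that is called, in both genotypes, at -0.62 and -0.47.

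Differences between the genotypes were not called for any of these genes. The response in the knockout minus the response in wild type gave 0 of 31 calls with limma, and 0% of all genes were called. At an unadjusted p under 0.05 stood 1 of the 31, against 619 of all 12309 genes. Knockout minus wild type under SB also gave 0 calls among the 31 genes, where 0.0487% of all genes were called. There 1 of the 31 had an unadjusted p under 0.05, against 460 of the 12309. Under VILI there were 0 calls among the 31, where 0.106% of all genes were called. Here 3 of the 31 had an unadjusted p under 0.05, against 1070 of the 12309. The comparisons share arrays, so their values are given side by side and not as separate evidence.

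The share called depends on signal level. Of the 31 genes, 13 had a mean log2 signal between the filter level and 5, where 15.9% of all genes were called for the mean of both genotypes and 0 of these 13 were. Between 5 and 8 stood 8 of the genes, 1 of them called (Mcm2), against 40.1% of all genes there. At 8 and over stood 10, 1 of them called (Mcm7), against 39.2%. The median standard error of the mean effect was 0.10 for the brightest 10 genes and 0.10 for all genes at that level.

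10 of the 41 genes lay below the filter and were not tested: Foxm1, a transcription factor of G2 genes, Tk1, the thymidine kinase of S phase, Cdk1, the mitotic kinase, Bub1b of the spindle checkpoint, the mitotic kinases Aurka and Plk1, and Cenpe, Kif20a, Tpx2 and Hmmr, which act at the centromere and spindle. Their mean log2 signals ran from 1.91 to 2.91, and none of their 12 values exceeded 3.20. The distance from the lowest to the highest array, the span, was 0.04 to 0.69 log2 among them. For 4 of these 10, Foxm1, Tk1, Aurka and Plk1, the span was under 0.2, so that all 12 arrays gave nearly one value, whereas Tpx2 spanned 0.69 and Cdk1 0.54. A fit without the filter tested all 41 genes and called Mcm7 in wild type, no gene in the knockout, and Mcm7 and Mcm2 in the mean of both. Among the 31 tested genes the median span was 0.75, beside 0.80 for all tested genes, and 10 of the 31 spanned over 1.

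**Figure D2:**
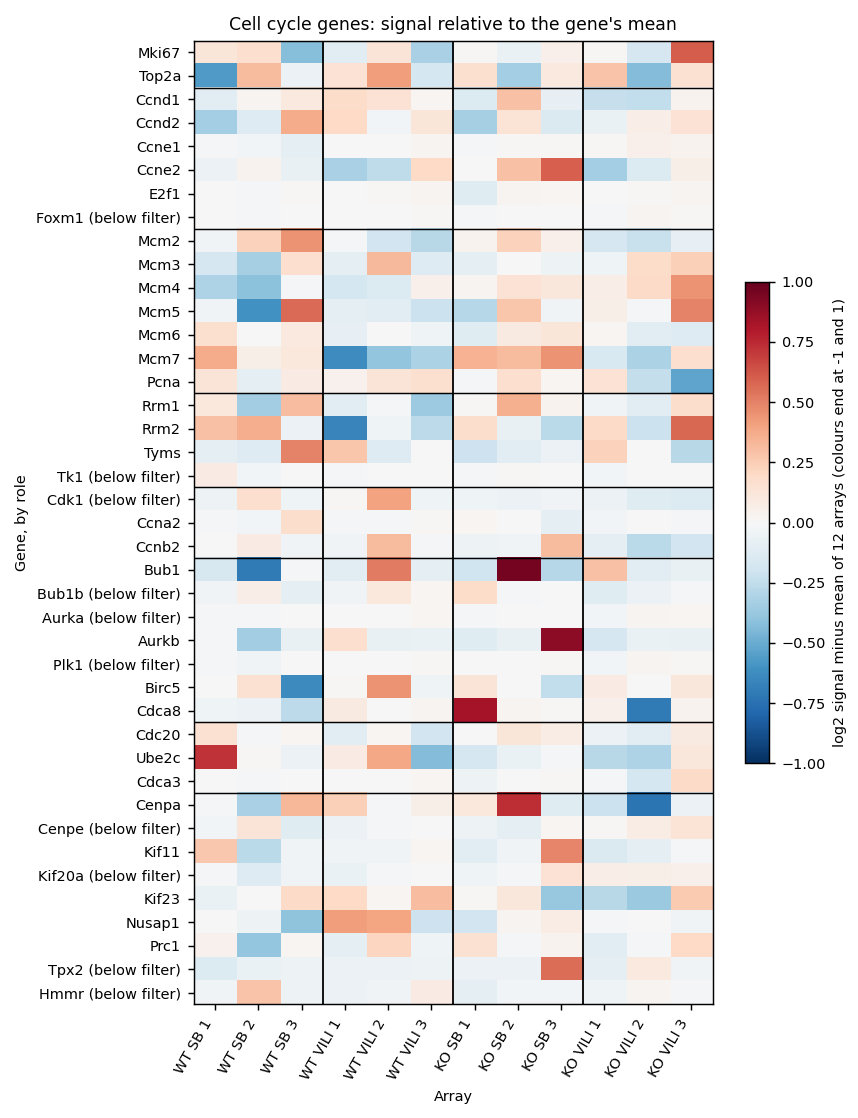
Log2 signal of each of the 41 genes in each of the 12 arrays, relative to the gene's own mean, by role; red is above and blue below the mean. Mcm7 is the row that runs from red in SB to blue in most VILI arrays in both genotypes, and the rows of Foxm1, Aurka and Plk1, below the filter, are nearly blank.

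Some facts of the arrays bear on these values. The deposited signals had array medians of 4.94 to 5.04, and the arrays correlated at 0.981 to 0.998 over all probe sets. Mylk, the targeted gene, had 3 probe sets, whose position relative to the deleted part is not given, so they are no check of the genotype; knockout minus wild type under SB ran from -0.97 to -0.22 over them. WT SB replicate 3 and KO SB replicate 2 are known from earlier results of these data to stand apart from the other SB arrays, and the results printed for the mean of both genotypes are given without them where that changes a call. Defining markers of lung epithelium (mean signal of 6 genes 15.0 to 15.2) and endothelium (5 genes, 12.0 to 12.3) were present in every array. All 6 tested neutrophil markers were called higher under VILI in the mean of both genotypes. Their mean signal was 7.61 to 10.3 in WT SB, 10.3 to 11.4 in WT VILI, 7.02 to 7.83 in KO SB and 10.6 to 11.4 in KO VILI, with WT SB replicate 3 as the highest SB array. Of T and NK cell markers 2 of 5 were called higher in the mean of both (median 0.52), and of alveolar macrophage markers 2 of 4 were called higher in wild type (median 0.67), 0 in the knockout (limma; 0 at an unadjusted p under 0.05) and 1 in the mean of both. Of B and plasma cell markers 1 of 4 was called lower in the mean of both. Of 6 granule genes made in dividing marrow precursors, Mpo, Elane, Prtn3 and Camp lay below the filter, and Ltf and Ngp were tested and not called. Ngp gave 4.11, 4.12 and 4.20 in KO SB and 5.95, 4.61 and 8.24 in KO VILI, without overlap (2.12 ± 0.86, adjusted p = 0.103), and -1.15 ± 0.86 in wild type. Fewer cells of a type and less RNA per cell cannot be told apart in these bulk samples, and the part of arriving cells in the results below was not tested.

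Mki67 encodes the Ki-67 protein, found in cells in any active phase of the cycle. Its log2 signal was 8.00, 8.05 and 7.45 in WT SB, 7.77, 8.01 and 7.56 in WT VILI, 7.89, 7.81 and 7.93 in KO SB and 7.90, 7.71 and 8.49 in KO VILI. The groups overlapped in both genotypes. The mean VILI effect was 0.05 ± 0.15 (SE, n = 3 arrays a group; 95% interval -0.29 to 0.38; limma adjusted p = 0.821). Top2a encodes topoisomerase II alpha, which untangles DNA in S phase and mitosis. It gave 4.59, 5.47 and 5.10 in WT SB, 5.30, 5.57 and 4.98 in WT VILI, 5.31, 4.82 and 5.26 in KO SB and 5.44, 4.72 and 5.31 in KO VILI, again overlapping. Its mean effect was 0.13 ± 0.19 (SE; 95% interval -0.28 to 0.54; adjusted p = 0.61). Neither interval excludes a small change in either direction.

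Mcm7 is a subunit of the hexameric Mcm2-7 helicase, which is loaded at replication origins in G1 and unwinds DNA in S phase. The signal was 10.00, 9.69 and 9.74 in WT SB and 9.0, 9.24 and 9.32 in WT VILI. In the knockout it was 9.98, 9.94 and 10.08 under SB and 9.48, 9.31 and 9.80 under VILI. Every VILI array of a genotype lay below every SB array of that genotype. Mcm7 fell by 0.62 ± 0.14 in wild type (SE; limma adjusted p = 0.0158) and by 0.47 ± 0.14 in the knockout (adjusted p = 0.0388), and by 0.55 ± 0.10 in the mean of both (adjusted p = 0.00231), to 0.684 of the SB level. The mean effect stayed called in all 21 alternatives that could be run, including each of the 12 fits without 1 array, with adjusted p up to 0.00736. The call in wild type was lost without WT SB replicate 1 (-0.53, adjusted p = 0.0637) and without WT VILI replicate 1 (-0.53, adjusted p = 0.0586). In the knockout alone the call held in 6 of the 12 fits without 1 array. It was lost without WT VILI replicate 2 (adjusted p = 0.0549), KO SB replicate 1 (0.066), KO SB replicate 2 (0.0812), KO SB replicate 3 (0.101), KO VILI replicate 1 (0.101) or KO VILI replicate 2 (-0.36, 0.139), and over all alternatives its adjusted p ran from 0.0062 to 0.139. It was also lost with array medians set equal (-0.44, adjusted p = 0.0652), with quantile normalization (-0.45, 0.0517), without the filter on dim probe sets (0.0552), with the 2 knockout groups fitted alone (0.0656) and without WT SB replicate 3 and KO SB replicate 2 (-0.50, 0.064).

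Mcm7 had 4 probe sets past the filter, and all 4 were lower under VILI in both genotypes. In a fit of all 22443 probe sets with 1 symbol past the filter, the mean effects were -0.69, -0.55, -0.40 and -0.36, the first 3 of them called and the last not (adjusted p = 0.0742). The probe set with the mean effect of -0.69 gave 8.54, 8.58 and 8.47 in WT SB, 7.87, 7.88 and 7.89 in WT VILI, 8.59, 8.55 and 8.71 in KO SB and 8.04, 7.91 and 7.74 in KO VILI. Its 6 SB values all exceeded its 6 VILI values, and its difference was -0.65 ± 0.09 in wild type (adjusted p = 0.00282) and -0.72 ± 0.09 in the knockout (adjusted p = 0.0018). That probe set was described after its values were seen.

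Mcm2 encodes another subunit of the same helicase. The signal was 7.28, 7.55 and 7.76 in WT SB, 7.30, 7.12 and 7.04 in WT VILI, 7.35, 7.55 and 7.36 in KO SB and 7.15, 7.10 and 7.23 in KO VILI. The groups did not overlap in the knockout, and in wild type the lowest SB array lay just below the highest VILI array. Mcm2 fell by 0.32 ± 0.09 in the mean of both genotypes (SE; limma adjusted p = 0.0192). Neither genotype alone was called, at -0.37 ± 0.13 in wild type (adjusted p = 0.0716) and -0.26 ± 0.13 in the knockout (adjusted p = 0.162). Without WT SB replicate 1 the wild-type difference was -0.50 and called (adjusted p = 0.0366; range over the alternatives 0.0366 to 0.209). Without WT SB replicate 3 and KO SB replicate 2 the mean effect was -0.23 and no longer called (adjusted p = 0.0542; range 0.00732 to 0.0611), nor was the mean of its probe sets (-0.21, adjusted p = 0.0611). Its other probe set past the filter showed -0.10 ± 0.08 and was not called, so the 2 probe sets of Mcm2 differ in their call.

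Mcm6, the third of the licensing genes by p, was lower by an amount that did not pass, -0.12 ± 0.06 (SE; adjusted p = 0.168), and its 2 probe sets past the filter differed in sign. In wild type its VILI arrays, at 9.81, 9.90 and 9.85, lay below its SB arrays, at 10.05, 9.90 and 10.00; in the knockout the groups overlapped. Mcm3, Mcm4 and Mcm5 stood at 0.16 ± 0.11, 0.15 ± 0.09 and 0.04 ± 0.18 in the mean of both genotypes, above 0 and not called. Mcm4 was 0.34 ± 0.13 higher in the knockout than in wild type under SB (unadjusted p = 0.0222) and 0.32 ± 0.13 under VILI (unadjusted p = 0.0285), neither passing adjustment over all genes (adjusted p = 1 and 0.53, limma). The other probe set of Mcm4 past the filter was nearly as bright (mean 9.57, beside 10.19). It gave 9.57, 9.46 and 9.65 in WT SB and 9.53, 9.58 and 9.53 in KO SB, with overlap. Under VILI it gave 9.56, 9.55 and 9.45 in wild type and 9.71, 9.63 and 9.57 in the knockout. So the Mcm4 difference between the genotypes under SB depends on the probe set. Pcna, the clamp that holds polymerases on DNA, gave 12.48, 12.25 and 12.43 in WT SB, 12.39, 12.48 and 12.51 in WT VILI, 12.34, 12.51 and 12.37 in KO SB and 12.49, 12.11 and 11.82 in KO VILI. Its KO VILI arrays spread over the widest range of the 4 groups, and its mean effect of -0.10 ± 0.10 was not called. Of the 7 genes of licensing and clamp, then, 2 (28.6%) were called lower, 0 higher and 5 not called in the mean of both genotypes, against 22.6% of all genes called lower and 36.7% called in either direction. The share called in this group lay near that of all genes.

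**Figure D3:**
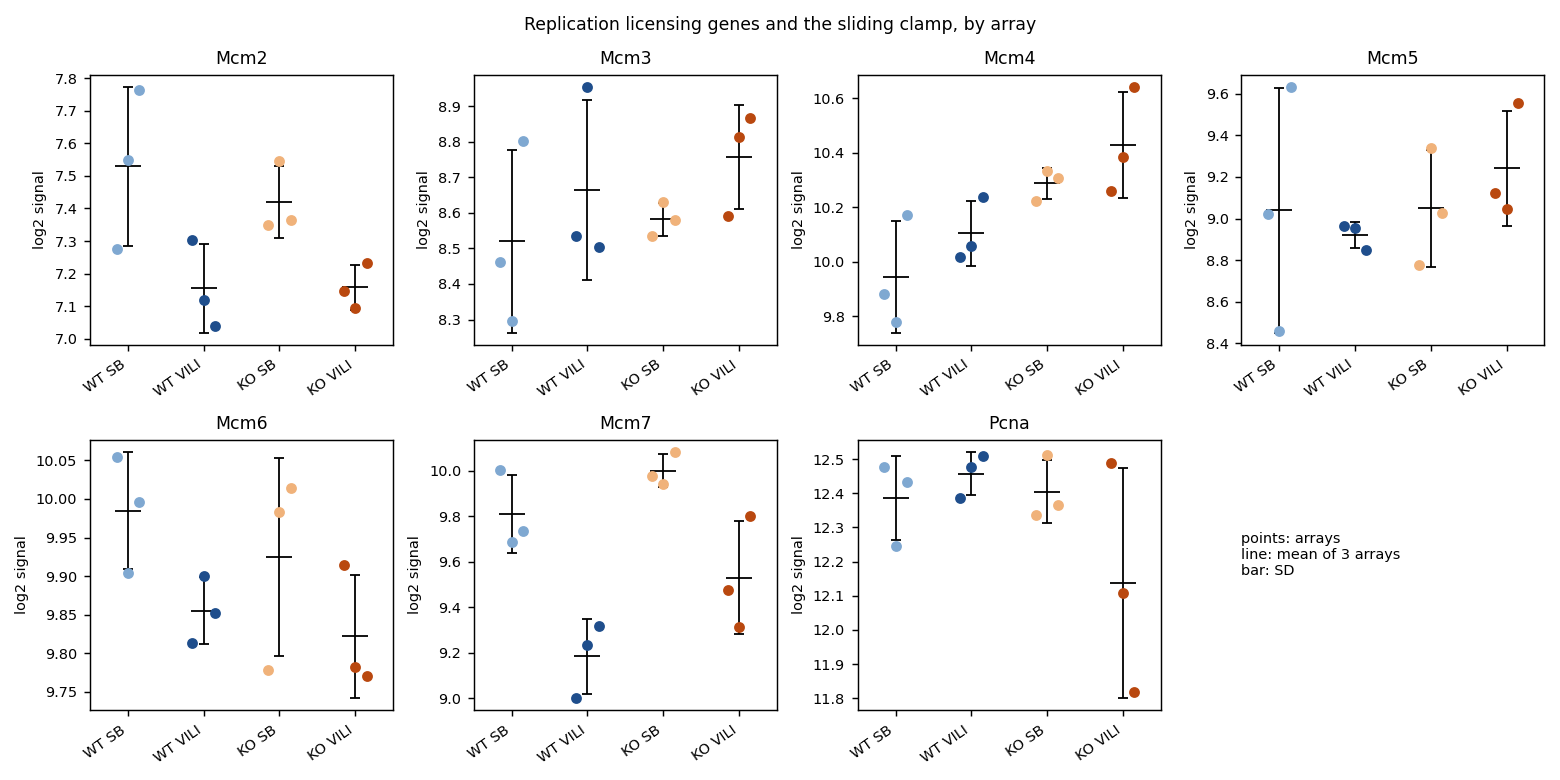
Log2 signal of the 6 Mcm genes and Pcna in each array by group, with the mean (line) and SD (bar) of 3 arrays; each panel has its own axis, which does not start at 0. In the Mcm7 panel the VILI points, 9.0 to 9.32 in wild type and 9.31 to 9.80 in the knockout, lie below all SB points of the same genotype, whereas the groups overlap for Mcm3, Mcm4, Mcm5 and Pcna.

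The promoters of cell cycle genes are known for short elements bound by E2F factors, by the DREAM and MuvB complexes (the cell cycle homology region, CHR) and by NF-Y (CCAAT). The 250 bases before the RefSeq start are shown for the 3 licensing genes with the smallest p, since these are the helicase genes that were lower, 2 of them called (GRCm38.p6, minus strand, 5′ to 3′ of the gene). Capitals mark a match, on either strand, to an E2F word (TTTCCCGC, TTTCGCGC, TTTGCCGC or TTTGGCGC), a CHR word (TTTGAA or TTCGAA) or CCAAT.
Mcm7, chr5:138171884-138172133: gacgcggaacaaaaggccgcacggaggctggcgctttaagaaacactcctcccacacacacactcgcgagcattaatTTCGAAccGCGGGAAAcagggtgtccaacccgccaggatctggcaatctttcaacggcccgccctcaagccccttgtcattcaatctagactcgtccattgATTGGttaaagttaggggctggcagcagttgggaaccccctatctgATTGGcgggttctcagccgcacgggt
Mcm2, chr6:88898781-88899030: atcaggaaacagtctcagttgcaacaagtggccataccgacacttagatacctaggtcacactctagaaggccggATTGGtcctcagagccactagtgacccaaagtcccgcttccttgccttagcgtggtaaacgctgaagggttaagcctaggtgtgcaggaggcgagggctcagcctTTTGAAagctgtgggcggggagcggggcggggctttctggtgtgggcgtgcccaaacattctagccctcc
Mcm6, chr1:128359706-128359955: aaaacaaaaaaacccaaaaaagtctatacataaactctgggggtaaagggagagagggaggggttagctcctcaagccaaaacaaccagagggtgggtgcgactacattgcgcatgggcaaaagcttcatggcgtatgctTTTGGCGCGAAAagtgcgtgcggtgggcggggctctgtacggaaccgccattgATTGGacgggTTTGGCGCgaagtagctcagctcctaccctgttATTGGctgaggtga

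This Mcm7 window, 1 of 2 that RefSeq gives for the gene, held an E2F word 165 bases and a CHR word 173 bases before the start, with CCAAT, on the other strand, 72 and 26 bases before it; its other window held CCAAT and neither of the other motifs. The Mcm2 window held a CHR word 70 bases and CCAAT 175 bases before the start, and no E2F word by these letters. The Mcm6 window held E2F words 110, 106 and 47 bases before the start, the first 2 of them overlapping on opposite strands, and no CHR word. RefSeq windows were matched by symbol for 33 of the 42 genes, in 35 windows. CCAAT stood in 29 of these 35 (82.86%) and in 33.85% of all 32851 windows of the same length. A CHR word stood in 11 (31.43%) against 17.15% of all, and an E2F word in 4 (11.43%) against 1.86% of all. In the 118 windows of the other cell cycle genes described further on, CCAAT stood in 53.39%, a CHR word in 24.58% and an E2F word in 16.95%, the last a larger share than in the 35. These are matches of letters and not measured binding.

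Among the G1 regulators, the D cyclins Ccnd1 and Ccnd2 receive growth factor signals, the E cyclins Ccne1 and Ccne2 start S phase, and E2f1 activates replication genes. None of the 5 tested genes, each read from its highest-mean probe set, was called in any comparison (limma; 1 at an unadjusted p under 0.05 in the knockout, 0 in wild type and 0 in the mean of both). The 3 probe sets of Ccnd1 past the filter differed in the knockout. The one used here had a mean of 12.55 under SB and 12.37 under VILI. Another gave 10.41, 10.65 and 9.94 in KO SB and 10.90, 10.87 and 11.18 in KO VILI, higher without overlap. That probe set is given after its values were seen. Ccne2 gave 5.20, 5.29 and 5.18 in WT SB, 4.94, 5.01 and 5.46 in WT VILI, 5.26, 5.56 and 5.86 in KO SB and 4.92, 5.12 and 5.32 in KO VILI. The groups overlapped in both genotypes, and the difference was -0.09 ± 0.18 in wild type and -0.44 ± 0.18 in the knockout (SE; adjusted p = 0.103). It became called in the knockout without KO SB replicate 1 (-0.58, adjusted p = 0.0469) and in the mean of both without WT VILI replicate 3 (-0.34, adjusted p = 0.0485). Ccnd2 gave 11.33, 11.53 and 12.03 in WT SB, 11.87, 11.63 and 11.79 in WT VILI, 11.33, 11.80 and 11.52 in KO SB and 11.60, 11.73 and 11.81 in KO VILI. The highest SB array of each genotype was the one that stands apart, WT SB replicate 3 and KO SB replicate 2. The mean effect of 0.15 ± 0.12 was not called (adjusted p = 0.376), and without these 2 arrays it was 0.31 and called (adjusted p = 0.0187). Of 7 probe sets of Ccnd2 past the filter 2 were called, both higher, but the 7 did not all move one way in the knockout. The dimmest gave 5.32, 6.21 and 5.61 in KO SB and 5.36, 4.56 and 4.34 in KO VILI. The next dimmest gave 9.48, 9.05 and 9.26 in KO SB and 9.64, 10.00 and 10.10 in KO VILI. Ccne1 was higher in every VILI array than in every SB array of its genotype, but by 0.05 ± 0.06 in wild type and 0.03 ± 0.06 in the knockout, not called, and its 12 arrays spanned under 0.2. E2f1 was dim as well (mean 3.59) and also spanned under 0.2, with group means of 3.56 to 3.60. How far signal limits these 2 genes was not tested.

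Ribonucleotide reductase, whose subunits are Rrm1 and Rrm2, makes deoxynucleotides for replication, and Tyms makes thymidylate. None of the 3 was called in any comparison (limma; 1 at an unadjusted p under 0.05 in wild type, 0 in the knockout and 0 in the mean of both). Rrm2 gave 7.71, 7.78 and 7.36 in WT SB, 6.76, 7.38 and 7.16 in WT VILI, 7.59, 7.34 and 7.15 in KO SB and 7.61, 7.21 and 8.00 in KO VILI. The wild-type groups overlapped only at WT SB replicate 3 and WT VILI replicate 2. The difference was -0.52 ± 0.22 in wild type (SE; adjusted p = 0.141) and 0.24 ± 0.22 in the knockout (adjusted p = 0.46). The difference of the responses, 0.76 ± 0.31, had an unadjusted p of 0.035 and an adjusted p of 0.971 (limma), so that it did not pass. Rrm2 is the one gene of the 31 with an unadjusted p under 0.05 in that comparison. Its other probe set past the filter was dimmer (mean 5.36). It gave 5.87, 6.51 and 5.31 in WT SB and 5.13, 5.30 and 5.11 in WT VILI, lower without overlap. In the knockout it gave 5.31, 4.26 and 5.31 under SB and 5.38, 5.32 and 5.53 under VILI, higher without overlap. The gap was very small in both genotypes. That probe set is given after its values were seen. Rrm1 and Tyms stood at -0.15 ± 0.12 and 0.03 ± 0.13 in the mean of both genotypes. The other probe set of Rrm1 past the filter was nearly as bright (mean 7.98, beside 8.10) and lay lower under VILI. It gave 8.36, 8.15 and 8.70 in WT SB and 8.15, 7.63 and 8.01 in WT VILI. In the knockout it gave 7.82, 8.70 and 8.42 under SB and 8.11, 7.58 and 6.08 under VILI, with overlap. So the size of the Rrm1 difference depends on the probe set.

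Of the mitotic cyclins, Ccna2 and Ccnb2 were tested. Ccnb2, a B cyclin that pairs with Cdk1, gave 5.07, 5.14 and 5.03 in WT SB, 5.03, 5.38 and 5.04 in WT VILI, 5.01, 5.03 and 5.38 in KO SB and 4.97, 4.80 and 4.87 in KO VILI. Each KO VILI array lay below each KO SB array, with a difference of -0.26 ± 0.13 (SE; adjusted p = 0.163), and the wild-type groups overlapped. Ccna2 stood at -0.02 ± 0.05 in the mean of both genotypes. For Cdk1 itself, below the filter, the arrays gave 2.42, 2.64 and 2.42 in WT SB, 2.48, 2.87 and 2.42 in WT VILI, 2.42, 2.41 and 2.43 in KO SB and 2.40, 2.34 and 2.33 in KO VILI.

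Bub1 guards the attachment of chromosomes to the spindle, and Aurkb, Birc5 (survivin) and Cdca8 (borealin) form the chromosomal passenger complex with Incenp. None of these 4 was called in any comparison (limma; 0 at an unadjusted p under 0.05 in the 3 VILI comparisons). All 4 stood above 0 in wild type, from 0.15 to 0.41, and 3 of the 4 below 0 in the knockout, where they ran from -0.50 to 0.11. Single arrays carried the highest values: Bub1 gave 4.87 in KO SB replicate 2, where the other KO SB arrays were at 3.71 and 3.62, Aurkb 4.55 in KO SB replicate 3 against 3.53 and 3.59, and Cdca8 4.64 in KO SB replicate 1 against 3.84 and 3.82. By these probe sets, each of the 3 high values is in a different array. The other probe set of Cdca8 past the filter gave 3.45, 3.99 and 3.48 in KO SB. Its highest value is thus in KO SB replicate 2, the array of the high Bub1 value. Birc5 gave 4.30, 4.46 and 3.66 in WT SB, 4.31, 4.75 and 4.25 in WT VILI, 4.43, 4.30 and 4.05 in KO SB and 4.38, 4.30 and 4.41 in KO VILI, a mean effect of 0.20 ± 0.14 (SE; adjusted p = 0.289).

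Cdc20 and Ube2c act in the ubiquitin step that ends mitosis, and Cdca3 takes part in mitotic entry. They stood at -0.12 ± 0.06, -0.14 ± 0.17 and 0.01 ± 0.06 in the mean of both genotypes and were not called. Cdca3, with a mean of 3.12, lay just above the filter level of 3.06. The other probe set of Cdc20 past the filter gave 5.72, 5.26 and 4.79 in WT SB and 4.80, 5.06 and 4.74 in WT VILI. In the knockout it gave 4.93, 5.44 and 5.57 under SB and 5.09, 4.73 and 4.87 under VILI, with overlap in both genotypes. So the size of the Cdc20 difference depends on the probe set. Of the 5 tested genes of centromere and spindle, Nusap1, Cenpa, Kif11, Kif23 and Prc1, none was called (limma; 1 at an unadjusted p under 0.05 in the knockout, Cenpa, and 0 in wild type and in the mean of both). Nusap1, a spindle microtubule binder, gave 4.43, 4.38 and 4.03 in WT SB and 4.84, 4.82 and 4.22 in WT VILI, a difference of 0.35 ± 0.17 (adjusted p = 0.19), and in the knockout 4.24, 4.46 and 4.51 under SB and 4.41, 4.43 and 4.40 under VILI. Without WT VILI replicate 3 the wild-type difference was 0.55 and called (adjusted p = 0.035), as was the mean of both (0.28, adjusted p = 0.0406). Cenpa, the histone H3 variant of the centromere, gave 6.48, 7.11 and 6.26 in KO SB and 6.16, 5.65 and 6.32 in KO VILI, a difference of -0.57 ± 0.25 (adjusted p = 0.12). In wild type it gave 6.36, 6.05 and 6.70 under SB and 6.61, 6.37 and 6.43 under VILI, with overlap in both genotypes.

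Counted by arrays that do not overlap, 3 of the 31 genes had all VILI arrays above all SB arrays in wild type (Ccne1, Cdca3 and Cdca8) and 2 had them below (Mcm6 and Mcm7). Of all genes tested, 15.5% lay above and 20.5% below in this way. The gap was very small for Cdca3 (highest WT SB array 3.122, lowest WT VILI array 3.124) and for Mcm6 (lowest WT SB array 9.904, highest WT VILI array 9.901). In the knockout 1 lay above (Ccne1) and 3 below (Mcm7, Mcm2 and Ccnb2), against 17.9% and 25.8% of all genes.

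Around these 42 genes, 112 other genes of the cycle were grouped in 6 lists: inhibitors of cyclin-dependent kinases, other G1 kinases, cyclins and phosphatases, pocket proteins with other E2F and DREAM genes, origin licensing and the replication fork, other mitosis genes, and the antiproliferative BTG and TOB genes. 86 of the 112 were tested, and 24 lay below the filter. For the mean of both genotypes 38 of the 86 (44.2%) were called, 8 higher and 30 lower, beside the 36.7% of all genes given above, and their median log2 difference was -0.17. In wild type 15 were called (17.4%, against 15.4% of all genes) and in the knockout 23 (26.7%, against 20.7%). The wild-type count fell to 6 without WT SB replicate 1 or WT VILI replicate 1, to 9 without WT SB replicate 3 or WT VILI replicate 2, and to 3 with those 6 arrays fitted alone. The knockout count fell to 10 without KO SB replicate 2, to 15 without KO VILI replicate 1 and to 13 without KO VILI replicate 2 or 3. With array medians set equal, the split for the mean of both was 10 higher and 22 lower. The same scaling changed the split over all genes in wild type from 780 higher and 1112 lower to 926 and 839.

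**Figure D4:**
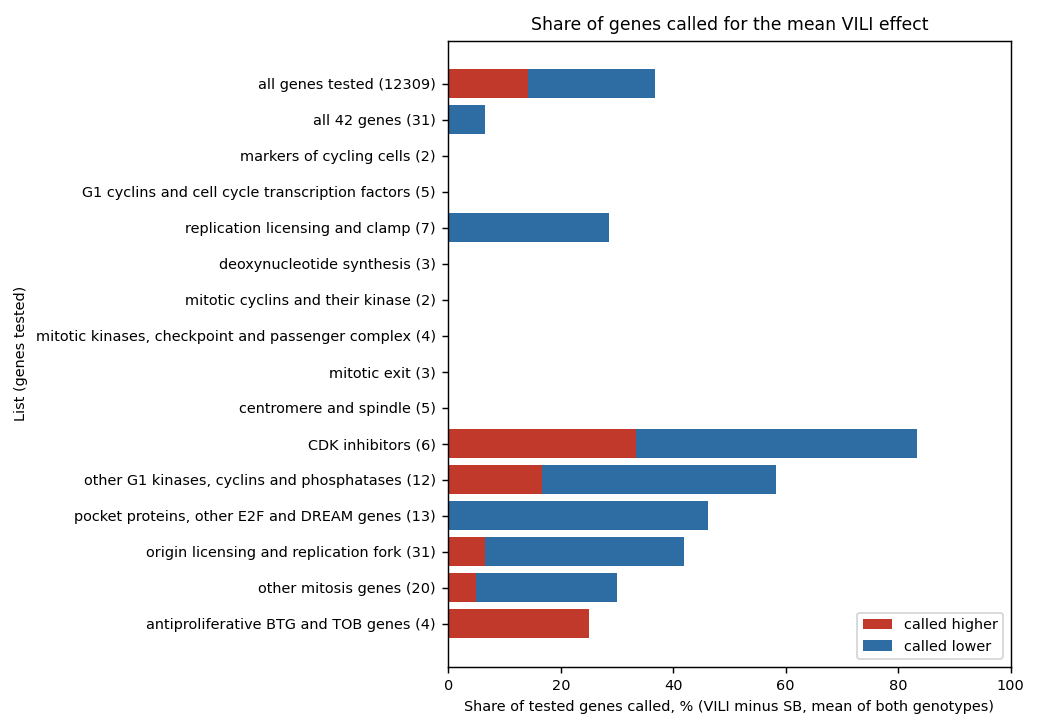
Share of tested genes called for VILI minus SB averaged over wild type and knockout, higher (red) and lower (blue), for all 12309 genes, the 31 tested of the 42 genes, their role groups and the 6 lists of other cell cycle genes, with the number tested in brackets. The role groups other than licensing have no bar because 0 of their genes were called.

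Of 6 tested kinase inhibitors, 2 were called higher and 3 lower for the mean of both genotypes, 83.3% against 36.7% of all genes. Cdkn2b, the p15 inhibitor of Cdk4 and Cdk6, gave 10.23, 10.62 and 10.78 in WT SB, 11.78, 11.58 and 11.48 in WT VILI, 10.21, 10.70 and 10.64 in KO SB and 11.61, 11.51 and 11.21 in KO VILI. All 6 VILI values exceeded all 6 SB values. It rose by 1.00 ± 0.13, 2.00-fold (SE; limma adjusted p = 0.000352), and was called in each genotype, at 1.07 ± 0.18 and 0.93 ± 0.18. Cdkn2c, the p18 inhibitor of the same kinases, went the other way: 8.79, 8.46 and 9.40 in WT SB, 8.17, 8.04 and 7.22 in WT VILI, 9.13, 9.82 and 8.72 in KO SB and 7.63, 7.84 and 7.06 in KO VILI. It fell by 1.39 ± 0.25 in the mean of both (adjusted p = 0.00232) and by 1.71 ± 0.36 in the knockout (adjusted p = 0.0102), while -1.08 ± 0.36 in wild type did not pass (adjusted p = 0.0679; 0.0487 without KO SB replicate 2). The calls of Cdkn2b and Cdkn2c for the mean of both held in all 22 alternatives.

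Cdkn1b (p27) and Cdkn1c (p57) were called lower by smaller amounts, -0.29 ± 0.10 (adjusted p = 0.0342) and -0.28 ± 0.09 (adjusted p = 0.0348). Neither call held in most fits without 1 array: Cdkn1b lost it without any one of WT SB 1 or 2, WT VILI 1, 2 or 3, KO SB 1 or 3 and KO VILI 1 or 2, and Cdkn1c without WT SB 1 or 3, WT VILI 1 or 3, KO SB 3 and KO VILI 1 or 2. Cdkn1c also lost it without both SB arrays that stand apart (-0.26, adjusted p = 0.0662). The adjusted p of Cdkn1b in these fits ran up to 0.0828 and that of Cdkn1c up to 0.0783. Both lost their call with array medians set equal (adjusted p = 0.0711 and 0.0712), and Cdkn1b also with the mean of its 2 probe sets, which differ in sign. Cdkn1a (p21), a target of p53, is named after its values were seen. It gave 12.38, 13.36 and 9.78 in WT SB, 13.71, 13.76 and 13.62 in WT VILI, 12.25, 9.11 and 12.32 in KO SB and 13.30, 13.14 and 13.08 in KO VILI. Every VILI array exceeded every SB array of its genotype, and the lowest SB values were those of the 2 arrays that stand apart. The mean effect of 1.90 ± 0.66 (adjusted p = 0.0452) was called in 3 of the 12 fits without 1 array; without both arrays that stand apart it was 0.86 and called (adjusted p = 0.00452). The call was lost without the filter (adjusted p = 0.0874), with a filter at the 20th percentile (0.0687) and with the mean of its probe sets (1.92, 0.0693).

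**Figure D5:**
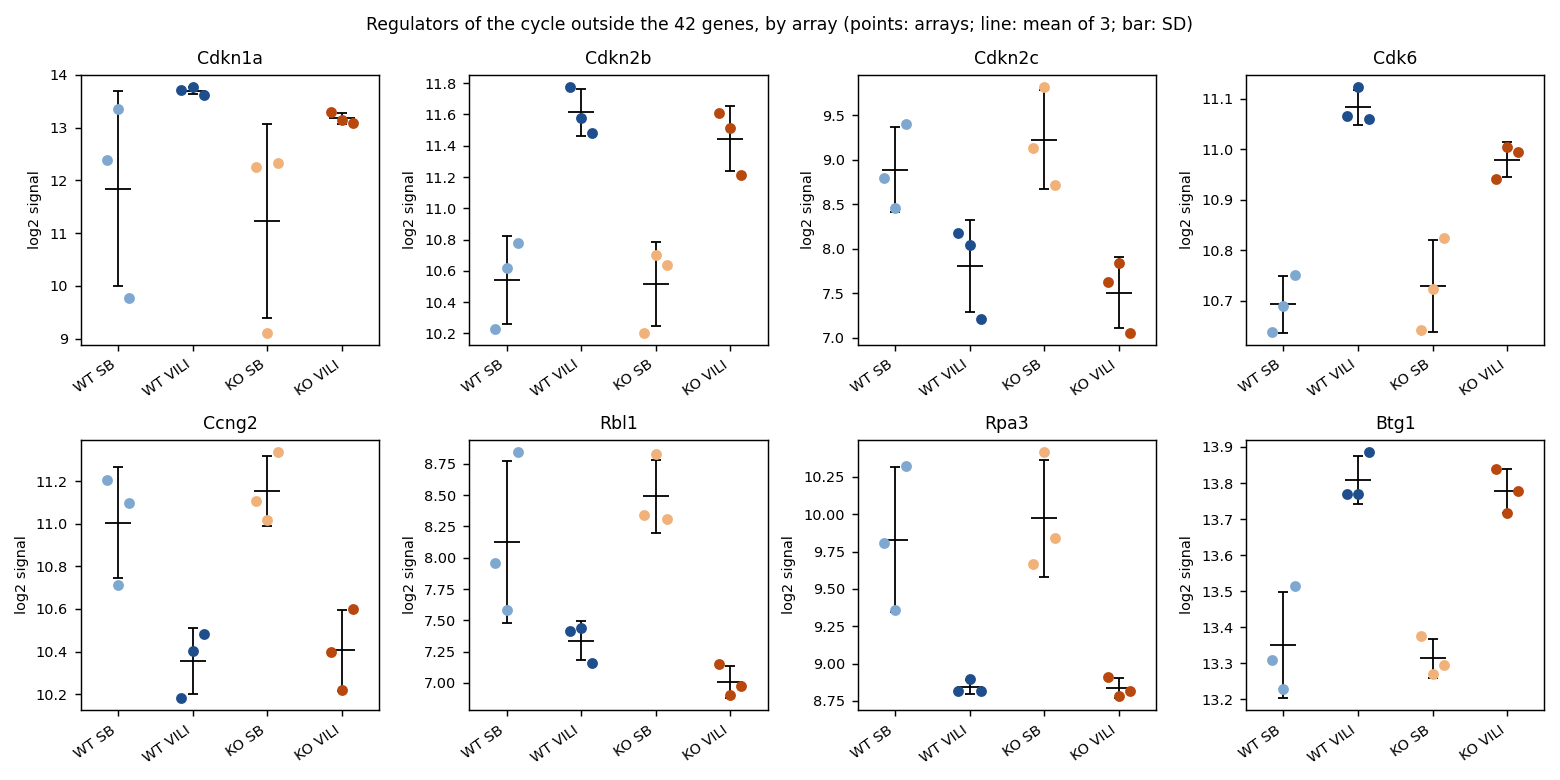
Log2 signal in each array for 8 regulators outside the 42 genes, with the mean (line) and SD (bar) of 3 arrays a group; each panel has its own axis, which does not start at 0. Cdkn1a, Cdkn2b, Cdk6 and Btg1 are higher in every VILI array than in every SB array of their genotype, and Cdkn2c, Ccng2, Rbl1 and Rpa3 are lower; the 2 lowest Cdkn1a points are WT SB replicate 3 and KO SB replicate 2.

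Of 12 tested G1 kinases, cyclins and phosphatases, 2 were called higher and 5 lower in the mean of both genotypes. That was 58.3%, against 36.7% of all genes. Cdk6, a partner of the D cyclins, gave 10.64, 10.69 and 10.75 in WT SB, 11.07, 11.12 and 11.06 in WT VILI, 10.64, 10.72 and 10.82 in KO SB and 10.94, 11.00 and 10.99 in KO VILI, with all VILI values above all SB values. It rose by 0.32 ± 0.05 (adjusted p = 0.00152). Ccng2, a cyclin linked to arrest, fell by 0.70 ± 0.11 (adjusted p = 0.00108), from 10.71 to 11.34 over the 6 SB arrays to 10.18 to 10.60 over the VILI arrays. With the mean of its probe sets the fall of Ccng2 was -1.19. Cdc25b, a phosphatase that activates Cdk1, fell by 0.66 ± 0.13 (adjusted p = 0.00303) and Cdk2, the partner of the E cyclins, by 0.38 ± 0.11 (adjusted p = 0.0194). Cdk4 and Ccng1 were the others called lower, at -0.40 and -0.31, and Wee1, a kinase that holds Cdk1 inactive, was the other called higher, at 0.48.

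In the list of pocket proteins, other E2F and DREAM genes, 6 of 13 (46.2%) were called lower and 0 higher for the mean of both, with a median of -0.30. Of all genes, 22.6% were called lower and 14.1% higher. At an unadjusted p under 0.05 with limma stood 9 of the 13, against 5783 of all 12309 genes. Rbl1 (p107), a pocket protein of the DREAM complex, gave 7.96, 7.58 and 8.84 in WT SB, 7.42, 7.43 and 7.16 in WT VILI, 8.34, 8.83 and 8.31 in KO SB and 7.15, 6.90 and 6.97 in KO VILI. Each VILI array lay below each SB array. Rbl1 fell by 1.14 ± 0.19 in the mean of both (SE; adjusted p = 0.00166) and by 1.48 ± 0.27 in the knockout (adjusted p = 0.00602), and -0.79 ± 0.27 in wild type did not pass (adjusted p = 0.0761), but was -1.06 and called without WT SB replicate 2 (adjusted p = 0.0207). Its other probe set past the filter stood at 0.36 and was not called, and with the mean of both probe sets the effect was -0.39 and not called (adjusted p = 0.0547). E2f6, a repressor of the E2F family, fell by 0.75 ± 0.13 (adjusted p = 0.00209), Lin9, of the MuvB core, by 0.53 ± 0.12 (adjusted p = 0.00742) and Rb1, the retinoblastoma protein, by 0.30 ± 0.07 (adjusted p = 0.00839). E2f2 and Lin37 were the others called lower.

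Of 31 tested genes of origin licensing and the replication fork, 11 were called lower and 2 higher in the mean of both genotypes, with a median of -0.17. That was 41.9% called, against 36.7% of all genes, and the 11 include Orc4 by its highest-mean probe set. Rpa3, the small subunit of the factor that coats single-stranded DNA, gave 9.81, 9.36 and 10.32 in WT SB, 8.82, 8.90 and 8.82 in WT VILI, 9.67, 10.42 and 9.84 in KO SB and 8.91, 8.78 and 8.81 in KO VILI. All VILI arrays lay below all SB arrays, and Rpa3 fell by 1.06 ± 0.17, to 0.479 of the SB level (SE; adjusted p = 0.00108). Gins4, of the GINS part of the active helicase, fell by 0.78 ± 0.12 (adjusted p = 0.00103), and Gmnn, geminin, which blocks relicensing, by 0.60 ± 0.09 (adjusted p = 0.001). The probe set with the highest mean for Orc4, of the origin recognition complex, fell by 0.78 ± 0.08 (adjusted p = 0.000176), but its 4 probe sets past the filter ran from -0.78 to 0.67, with 2 called lower and 1 called higher, so no direction is given for Orc4. Also called lower in the mean of both were Orc3, Orc5, Pola1, Pold1, Rfc2, Rpa1 and Dnmt1, from -0.74 (Pold1, a subunit of a replicative polymerase) to -0.24 (Orc3). Fen1, the flap nuclease of lagging strand synthesis, and Dbf4, the activator of the Cdc7 kinase, were called higher at 0.57 and 0.44, and Rfc4 was called in the knockout alone, at -0.66.

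Of 20 other mitosis genes tested, 5 were called lower and 1 higher in the mean of both genotypes, 30% against 36.7% of all genes. Pttg1, securin, which holds sister chromatids together until anaphase, fell by 0.38 ± 0.07 (adjusted p = 0.00266). Tacc3, a spindle protein, gave 2.96, 3.90 and 3.01 in WT SB, 4.36, 4.50 and 3.99 in WT VILI, 3.77, 2.99 and 3.92 in KO SB and 3.89, 4.21 and 4.09 in KO VILI, and rose by 0.75 ± 0.20 in the mean of both (adjusted p = 0.0168). Its 3 lowest SB values included both arrays that stand apart. Smc2, a condensin subunit, was called lower at -0.70 ± 0.19 (adjusted p = 0.0153), which was -0.44 without these 2 arrays, and of its 5 probe sets past the filter this was the one called; with their mean the effect was -0.14 and not called (adjusted p = 0.235). Smc4, its partner, stood at -0.20 ± 0.06 (adjusted p = 0.0266), a call lost without WT SB 2, WT VILI 1, WT VILI 2, KO SB 3 or KO VILI 1 (adjusted p up to 0.0636), with array medians set equal (-0.16, 0.0806) and with the mean of its probe sets (-0.12, 0.301). Fzr1 and Ncapd2 were also called lower, at -0.41 and -0.33, and Ect2 in the knockout alone, at -0.59. Of 4 BTG and TOB genes, which slow division, 1 (25%) was called in the mean of both, Btg1, against 36.7% of all genes. Btg1 gave 13.31, 13.23 and 13.51 in WT SB, 13.77, 13.77 and 13.89 in WT VILI, 13.38, 13.27 and 13.30 in KO SB and 13.84, 13.72 and 13.78 in KO VILI. It rose by 0.46 ± 0.06 (adjusted p = 0.000548), and by 1.50 when read from a probe set whose ID has no letter before _at.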

How the data were processed

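Values were the deposited log2 signals of 45037 probe sets in 12 mouse lung arrays, already normalized by the authors; the submitters' processing notes name MAS5 and GCRMA, without versions or roles. The number of arrays, 3 a group, limits the precision, and separate animals are stated by the series' design. Probe sets with 1 symbol (34945) and a mean at or above the 40th percentile were kept, with the highest-mean probe set per gene. 6 comparisons were fitted with limma 3.58.1 in R 4.3.3 (lmFit, eBayes, 4 group means), with Benjamini-Hochberg adjusted p under 0.05 over all 12309 genes; a gene past it is "called". The test was checked on simulated data. The members, lists and settings were chosen with earlier results of these data known. Named are Mki67, Top2a, called members, the 3 smallest p of each role, members below the filter, and at most 4 called genes of each other list. Array weights used limma's gene-by-gene method, since its default did not converge. Counts of the 112 other genes under each setting were added after seeing the data. Promoters are RefSeq windows of GRCm38.p6.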

Additional observations from a re-analysis of the deposited data

How the results depend on the processing

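The values below are the number of the 31 tested genes called for VILI minus SB, or their median log2 difference. In wild type, 1 gene was called; the number was 0 when genes were read from probe set IDs with no letter before _at, which leaves Mcm7 without a value, and 0 to 2 when single arrays were left out. In the knockout, 1 was called; it was 0 without the filter, with such probe set IDs, with array medians set equal, with quantile normalization, with the 2 groups fitted alone and without WT SB replicate 3 and KO SB replicate 2, 3 with array weights (0.25 to 3.22; Ccnb2, Ccne2 and Mcm7), and 0 to 1 without single arrays. For the mean of both, 2 were called; it was 1 with the mean of a gene's probe sets (Mcm7), 1 with such probe set IDs (Mcm2), 6 with array weights (Ccnd2, Ccne2, Cdc20, Mcm2, Mcm6 and Mcm7), and 2 to 4 without single arrays. The cause was not tested.

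The wild-type median was -0.039 with such probe set IDs and 0.10 with array medians set equal. For the response in the knockout minus that in wild type it was -0.10 with array weights and -0.11 to 0.0041 without single arrays. For knockout minus wild type it was -0.0040 under SB without WT SB replicate 3 and KO SB replicate 2, and -0.091 to -0.0026 under VILI without single arrays. Orc4, read from a probe set ID with no letter before _at, turned to 0.39 in the knockout and 0.19 in the mean of both.

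Replicate numbers do not pair the arrays: same-numbered arrays correlated at -0.63 to 0.40 in their deviations from group means, and 1 of 12 correlations exceeded 0.1. With the replicate number as a block, 0 of the 31 genes were called in the knockout, against 1 without it. The block also ended the mean calls of Cdkn1a (adjusted p = 0.072), Cdkn1b (0.0542) and Cdkn1c (0.0605), the wild-type calls of Gins4 and Tacc3, and the knockout calls of Cdk6, Cdc25b and E2f6. Over all genes the count called ran over the alternatives from 845 to 3836 in wild type (1892 as reported), from 1232 to 4017 in the knockout (2554) and from 3551 to 5767 in the mean of both (4520). No measure of background was used, so how far signal limits the 10 genes below the filter was not tested. With array weights, 30 of the 86 other cell cycle genes were called in wild type and 36 in the knockout.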
